A study of Homo sapiens with 10 samples.

Results

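Levels of 10 aldo-keto reductase genes were followed through 10 RNA sequencing libraries made from A549, a long-established line of human lung adenocarcinoma with a mutated KEAP1 gene. The 10 members were taken by name from the 33551 rows of the count table: AKR1A1; AKR1B1, AKR1B10 and AKR1B15; AKR1C1, AKR1C2, AKR1C3 and AKR1C4; and AKR7A2 and AKR7A3. All 10 passed the filter on low counts, which kept 17978 genes. The groups were the unedited line (WT), a line that the labels call a knockout of ABCA3 (KO), and 3 lines with an ABCA3 variant, L101P, E292V or E690K. ABCA3 is a lipid transporter of the surfactant-storing organelles of alveolar type 2 cells. Each line was sequenced untreated and after overnight exposure to a VSVG-pseudotyped lentivirus that encodes an ABCA3:GFP fusion, used at an MOI (multiplicity of infection) of 20. The series title separates type 1 from type 2 variants, and L101P is commonly placed in type 1 (misfolded and retained) and E292V and E690K in type 2 (correctly placed, less active). Every combination of line and treatment has 1 library, and every genotype 1 line. Nothing in the labels says that libraries came from independent cultures. The p-values set each difference only against how far these libraries depart from effects of line and vector that add up. A difference between lines describes these lines, not a genotype over independent clones.

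Aldo-keto reductases are soluble enzymes that use NADPH to reduce aldehydes and ketones to alcohols, in sugars, steroids, retinoids, prostaglandins and products of lipid peroxidation. Several members, above all AKR1B10 and the AKR1C genes, are known targets of NRF2 (NFE2L2), a transcription factor that KEAP1 normally marks for degradation. In lung adenocarcinoma cells with a defective KEAP1, such as A549, NRF2 accumulates and these genes are known to be strongly transcribed.

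Most members lie in clusters of related copies, in GRCh38 with GENCODE release 29 gene models. AKR1C1 (ENSG00000187134.13), AKR1C2 (ENSG00000151632.17), AKR1C3 (ENSG00000196139.13) and AKR1C4 (ENSG00000198610.10) span chr10:4963253-5218949. AKR1B1 (ENSG00000085662.13), AKR1B10 (ENSG00000198074.9) and AKR1B15 (ENSG00000227471.8) span chr7:134442350-134579875. AKR7A3 (ENSG00000162482.4) and AKR7A2 (ENSG00000053371.12) span chr1:19282558-19312146, and AKR1A1 (ENSG00000117448.13) stands alone at chr1:45550543-45570049. How reads that match several genes were counted is not given in the sources used here, so the likeness of the coding sequences sets how far the levels of neighbours can be told apart.

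AKR1C1 and AKR1C2 had 98.05% identical coding sequence, with 19 differences over 972 aligned bases and an identical run of 189 bases. The same 60 coding bases of the 4 AKR1C genes are shown because in this exon stretch AKR1C1 and AKR1C2 differ most. Capitals mark bases that differ from AKR1C1: 10 in AKR1C2, 7 in AKR1C3 and 5 in AKR1C4. The stretch lies in coding exons, at chr10:4965932-4965991 (plus strand) in AKR1C1, chr10:5001604-5001663 (minus strand) in AKR1C2, chr10:5096428-5096487 (plus strand) in AKR1C3 and chr10:5200199-5200258 (plus strand) in AKR1C4. Sequences are given 5′ to 3′ along the transcript, from the GENCODE transcripts.
AKR1C1: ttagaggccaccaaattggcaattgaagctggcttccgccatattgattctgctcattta
AKR1C2: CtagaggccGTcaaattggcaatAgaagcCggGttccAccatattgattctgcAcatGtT
AKR1C3: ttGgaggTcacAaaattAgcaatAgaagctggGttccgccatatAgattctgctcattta
AKR1C4: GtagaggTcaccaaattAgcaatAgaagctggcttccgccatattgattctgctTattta
More than 50% of the stretches of 50 coding bases were shared with another gene in AKR1C1 (54.5%) and AKR1C2 (57.2%), against 23.0% in AKR1C3 and 17.6% in AKR1C4. With 100 bases the shared part was 21.0% in AKR1C1 and 26.7% in AKR1C2. AKR1C1 is the less abundant of that pair, and its level in particular is uncertain where reads of AKR1C2 could be assigned to it.

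AKR1B10 and AKR1B15 had 86.18% identical coding sequence, and AKR1B1 and AKR1B10 76.23%. In the 60 bases shown, capitals mark bases that differ from AKR1B10, 7 in AKR1B15 and 13 in AKR1B1. They lie in coding exons at chr7:134530685-134530744 (plus strand), chr7:134568200-134568259 (plus strand) and chr7:134451652-134451711 (minus strand), in the order printed.
AKR1B10: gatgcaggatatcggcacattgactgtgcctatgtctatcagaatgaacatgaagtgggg
AKR1B15: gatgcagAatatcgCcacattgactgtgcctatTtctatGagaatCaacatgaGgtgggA
AKR1B1: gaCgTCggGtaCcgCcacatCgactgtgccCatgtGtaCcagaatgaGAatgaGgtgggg
Stretches of 50 coding bases shared with another gene made up 28.4% of AKR1B10, 18.6% of AKR1B15 and 7.21% of AKR1B1. AKR1A1 shared none.

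AKR7A2 and AKR7A3 had 85.09% identical coding sequence. The stretch shown holds 15 bases that differ between them, marked by capitals, in coding exons at chr1:19308579-19308638 (minus strand) and chr1:19286309-19286368 (minus strand).
AKR7A2: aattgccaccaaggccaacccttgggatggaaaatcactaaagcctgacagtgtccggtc
AKR7A3: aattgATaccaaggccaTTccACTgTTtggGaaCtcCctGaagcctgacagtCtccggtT
Shared stretches of 50 coding bases made up 10.2% of AKR7A2 and 31.4% of AKR7A3, most of the latter with the neighbouring pseudogene AKR7L.

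The libraries held 59430095 to 96811421 counts, the lowest and the highest both in the L101P line, untreated and transduced. The targeted gene was not higher in every transduced library: ABCA3 stood at 601 CPM (counts per 1000000 counts of the library) in the library labelled KO untreated and at 25.8 CPM in the library labelled KO transduced, so vector results are also given with these labels exchanged. The ratio of transduced to untreated was 0.775 in L101P, also against the labels, and 1.04 in E292V, 1.09 in E690K and 1.69 in WT. ABCA3 counts do not separate the endogenous gene from the vector, and lines and treatments are named throughout as labelled. Epithelial markers (5 of 5 detected) summed to 5434 to 11462 CPM, whereas 6 of 6 alveolar type 2 markers, the surfactant protein genes among them, were under 1 CPM in every library. Fibroblast markers summed to 77.8 and 121 CPM in the E292V libraries and 15.9 to 47.5 CPM in the other 8. In that list 4 of 6 genes were under 1 CPM in every library and COL1A1 made up most of the sum. Leukocyte markers summed to 21.0 to 43.9 CPM with 3 of 4 under 1 CPM in every library and CD3E at 0, and endothelial and hepatocyte markers to at most 1.02 and 0.407 CPM. In bulk RNA, a change in the mixture of cells and a change in RNA per cell cannot be told apart.

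The 10 members together took 0.462% to 0.831% of all counts in a library (median 0.662%). Compared per kilobase of coding sequence, AKR1C2 had the highest level, with a median of 2549 CPM per kilobase. AKR1B10 followed at 1718, AKR1C3 at 1519 and AKR1B1 at 634.5 CPM per kilobase. AKR1C1 stood at 165, AKR1A1 at 61.9, AKR7A2 at 32.0 and AKR1B15 at 25.2 CPM per kilobase, while AKR1C4 (2.50) and AKR7A3 (0.292) were the lowest. Per kilobase of all annotated exons AKR1B10 (937) came before AKR1C2 (383), and AKR7A2 (19.4), AKR1A1 (19.4) and AKR1C1 (18.3) were level. Per coding kilobase AKR1C2 and AKR1B10 overlapped over the libraries (1496 to 3106 and 1456 to 2609), and the AKR1C2 count was 0.972 to 1.64 times that of AKR1B10, so their order is not fixed by these data.

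**Figure D1:**
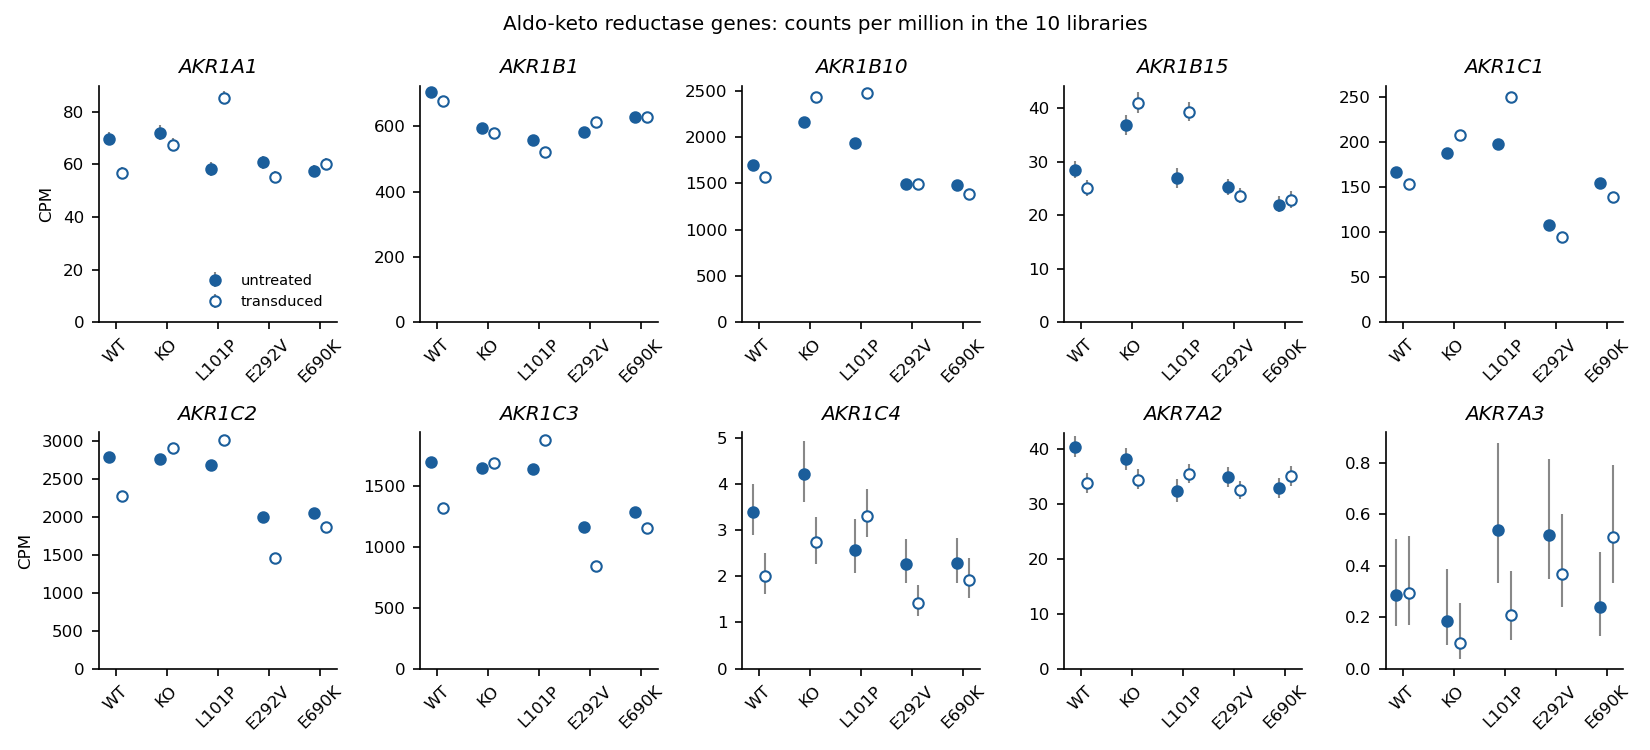
Level of each aldo-keto reductase gene in CPM (y axis, from 0, a separate scale for each gene) in the 5 lines (x axis), with filled points for untreated and open points for transduced libraries. Bars are 95% Wilson intervals on read pairs and cover counting error only. E292V and E690K lie below KO and L101P for AKR1B10, AKR1C1, AKR1C2 and AKR1C3, and AKR7A2 lies between 32.3 and 40.3 CPM throughout.

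AKR1B10, a reductase of retinaldehyde and other aldehydes that is normally an enzyme of the gut and is raised in many lung cancers, was counted at 1699.5 and 1568 CPM in WT (untreated, then transduced, here and below). It stood at 2162.5 and 2437 CPM in KO, 1933 and 2481 CPM in L101P, 1497 and 1495.5 CPM in E292V, and 1478 and 1384 CPM in E690K. The 4 KO and L101P libraries were all above the 6 others, and E292V and E690K were all below WT. AKR1B10 differed among the lines (adjusted p = 0.00152), and 6 of the 10 members did so, beside 13% of all genes tested.

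AKR1B15, a close copy of AKR1B10 that also reduces retinaldehyde, ran at 1.39% to 1.70% of the AKR1B10 level. It was counted at 28.4 and 25.0 CPM in WT, 36.8 and 41.0 CPM in KO, 26.9 and 39.3 CPM in L101P, 25.2 and 23.6 CPM in E292V, and 22.0 and 22.9 CPM in E690K. KO was above WT, and L101P reached the KO range only in its transduced library. AKR1B15 differed among the lines (adjusted p = 0.0108), and not without the KO pair or without the E690K pair (up to 0.133). Its libraries moved closely with those of AKR1B10 (Pearson r = 0.964, Spearman rho = 0.867, 10 libraries that share depth and, in part, sequence).

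AKR1B1, aldose reductase, which turns glucose into sorbitol in the polyol pathway, was highest in WT. It was counted at 706 and 679 CPM in WT, 594 and 579 CPM in KO, 558 and 522 CPM in L101P, 581 and 613 CPM in E292V, and 628 and 628 CPM in E690K. Both WT libraries were above the other 8, and both L101P libraries were the lowest. The difference among the lines had an adjusted p of 0.0473 and was not called in 9 of 15 other settings (adjusted p 0.00207 to 0.208). AKR1B10 exceeded AKR1B1 by 2.20 to 4.75 times in counts, most in the transduced L101P library.

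AKR1C2, which reduces dihydrotestosterone to a weak androgen, was counted at 2785 and 2272 CPM in WT, 2759 and 2914.5 CPM in KO, 2683 and 3019.5 CPM in L101P, 1995 and 1454 CPM in E292V, and 2055.5 and 1864 CPM in E690K. The 4 libraries of E292V and E690K were the lowest, and the lowest single value was transduced E292V. It was the 30th most counted gene by mean CPM. AKR1C2 differed among the lines (adjusted p = 0.00368), and did so in all 15 other settings.

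AKR1C3, which makes testosterone from androstenedione and also reduces prostaglandins, stayed at 0.578 to 0.628 of the AKR1C2 count in every library. It was counted at 1696 and 1315 CPM in WT, 1649 and 1685.5 CPM in KO, 1637 and 1874 CPM in L101P, 1159 and 845 CPM in E292V, and 1290.0 and 1156 CPM in E690K. Untreated WT lay with KO and L101P and transduced WT close to E690K. AKR1C3 differed among the lines (adjusted p = 0.00395), and not without the E292V pair (0.0671).

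AKR1C1, which inactivates progesterone, was counted at 167 and 153 CPM in WT, 188 and 208 CPM in KO, 198 and 249.5 CPM in L101P, 108 and 94.7 CPM in E292V, and 155 and 139 CPM in E690K. The E292V pair was the lowest and the 4 KO and L101P libraries the highest, without overlap with the rest. Its share of the AKR1C2 count ran from 5.43% to 8.26%. AKR1C1 had the lowest adjusted p among lines of the members (0.00036), and was called in all 15 other settings.

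AKR1C4, known as the liver form and a bile acid enzyme, was counted at 3.40 and 2.01 CPM in WT, 4.21 and 2.73 CPM in KO, 2.57 and 3.32 CPM in L101P, 2.27 and 1.42 CPM in E292V, and 2.29 and 1.92 CPM in E690K. These are 135 to 321 counts, at 0.0883% to 0.153% of the AKR1C2 count, and hepatocyte markers were at most 0.407 CPM in sum. Lines overlapped, and the difference among them was not called (adjusted p = 0.160). It was called in 4 of 15 other settings, among them without a filter on low counts and without the L101P pair. How far reads of the abundant AKR1C genes add to these counts was not tested.

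AKR1A1, aldehyde reductase, a broadly expressed housekeeping member, was counted at 69.7 and 56.6 CPM in WT, 72.1 and 67.4 CPM in KO, 58.1 and 85.5 CPM in L101P, 60.8 and 55.4 CPM in E292V, and 57.5 and 60.1 CPM in E690K. The highest value was transduced L101P and all lines overlapped WT. It was not called among the lines (adjusted p = 0.412), and was called in 2 of 15 other settings, without the untreated L101P library (adjusted p = 0.000152) and without a filter on low counts.

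AKR7A2, which reduces succinic semialdehyde and aflatoxin aldehydes, had the narrowest range of the members, 1.25 times between its extremes. It was counted at 40.3 and 33.7 CPM in WT, 38.0 and 34.4 CPM in KO, 32.3 and 35.4 CPM in L101P, 34.8 and 32.4 CPM in E292V, and 32.8 and 35.0 CPM in E690K. It was not called among the lines (adjusted p = 0.814) and in none of 15 other settings. AKR7A3, its liver-enriched copy, had 8 to 41 counts per library. The lowest value was 0.0985 CPM in the library labelled KO transduced (95% Wilson interval 0.0383 to 0.253) and the highest 0.538 CPM in untreated L101P (0.331 to 0.875). No difference was detectable at that depth (adjusted p = 0.590).

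Comparisons of the edited lines with WT took both treatments together, in 1 fit over the 10 libraries. These comparisons share the WT libraries. Differences are log2 fold changes with the standard error (SE) of the fit. Shares of all genes come from this fit too, and for comparisons between lines those of other settings are not given.

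The line labelled KO had more AKR1B10 than WT. Of the 10 members 1 was called, beside 1.80% of all genes tested, and the median member difference was 0.19 against -0.01 over all genes. AKR1B10 was higher by 0.52 (SE 0.11, adjusted p = 0.0336), and both KO libraries lay above both WT libraries. The call was lost with the KO labels exchanged (adjusted p = 0.0741) and without the E690K pair (0.0806), with the difference at 0.52 in both. AKR1B15 was estimated at 0.56 (SE 0.15, adjusted p = 0.0797), AKR1C1 at 0.33 (0.201), and AKR1C2 at 0.20 (0.526). AKR1B15 and AKR1C1 passed without a filter on low counts. When either L101P library was left out, they stood at 0.57 and 0.34.

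L101P had more AKR1B10 and AKR1C1 and less AKR1B1 than WT. Of the 10 members 3 were called, beside 3.94% of all genes, and the median was 0.26 against -0.01. AKR1B10 was higher by 0.47 (SE 0.11, adjusted p = 0.0318) and AKR1C1 by 0.52 (SE 0.12, adjusted p = 0.0286). AKR1B1 fell by 0.32 (SE 0.07, adjusted p = 0.0286). All 3 calls were lost without the transduced L101P library, which was also the most deeply sequenced and had the highest epithelial marker sum (11462 CPM), and the part of these in the result was not tested. Without it AKR1B10 was at 0.26 and AKR1C1 at 0.29. Without the untreated L101P library the same differences were 0.66 and 0.74. Without the KO pair or without the E690K pair 0 members passed, and 1 did with the KO labels exchanged. With the 4 AKR1C genes counted as 1 row, the AKR1C difference was 0.26 (SE 0.13, adjusted p = 0.307).

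E292V had less AKR1C1 than WT. Of the 10 members 1 was called, beside 1.05% of all genes, and the median was -0.18 against 0.00. AKR1C1 fell by 0.66 (SE 0.12, adjusted p = 0.0197). AKR1C2 at -0.56 (SE 0.13, adjusted p = 0.0587) and AKR1C3 at -0.60 (SE 0.13, adjusted p = 0.0535) missed the threshold. Both passed it under DESeq2, under limma-voom and without a filter on low counts, which made 3 members called. When either L101P library was left out, they stood at -0.57 and -0.60. With the 4 AKR1C genes counted as 1 row, the difference was -0.58 (SE 0.13, adjusted p = 0.0513). The AKR1C1 call was lost without the E690K pair (adjusted p = 0.0630) and without the KO pair (0.0518). The E292V libraries also had the highest fibroblast marker sums, 77.8 and 121 CPM, and the lowest epithelial marker sums, 6042 and 5434 CPM. The part of these in the result was not tested.

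In E690K no member was called against WT, beside 5.38% of all genes. With an unadjusted p under 0.05 stood 1 member, AKR1C2, at -0.32 (SE 0.13, adjusted p = 0.183), which passed without a filter on low counts. When either L101P library was left out, AKR1C2 stood at -0.31. DESeq2 and limma-voom called 0 members too. AKR1C1 was estimated at -0.07 (SE 0.12), AKR1B10 at -0.14 (SE 0.11), and 1 of 10 estimates was above 0.

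L101P had more AKR1B10, AKR1B15, AKR1C1, AKR1C2 and AKR1C3 than the mean of E292V and E690K, the comparison across variant types. Of the 10 members 5 were called, all higher in L101P, beside 5.79% of all genes, and the median was 0.56 against 0.00. AKR1C1 was higher by 0.89 (SE 0.10, adjusted p = 0.000815), AKR1C3 by 0.70 (SE 0.11, adjusted p = 0.00364) and AKR1C2 by 0.66 (SE 0.11, adjusted p = 0.00392). AKR1B10 was higher by 0.61 (SE 0.09, adjusted p = 0.00303) and AKR1B15 by 0.52 (SE 0.13, adjusted p = 0.0323). AKR1B10, AKR1C1 and AKR1C2 were called in all 15 other settings, and without the transduced L101P library their differences were 0.40, 0.66 and 0.45. AKR1C3 was lost without the E292V pair (adjusted p = 0.0736), and AKR1B15 in 5 settings, without the transduced L101P library, without the KO, E292V or E690K pair, and with the KO labels exchanged. AKR1C1 to AKR1C4 counted as 1 row gave 0.69 (SE 0.11, adjusted p = 0.00342), a difference that does not depend on how reads were split among the 4. With 1 line of the first type and 2 of the second, variant type and line cannot be told apart.

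**Figure D2:**
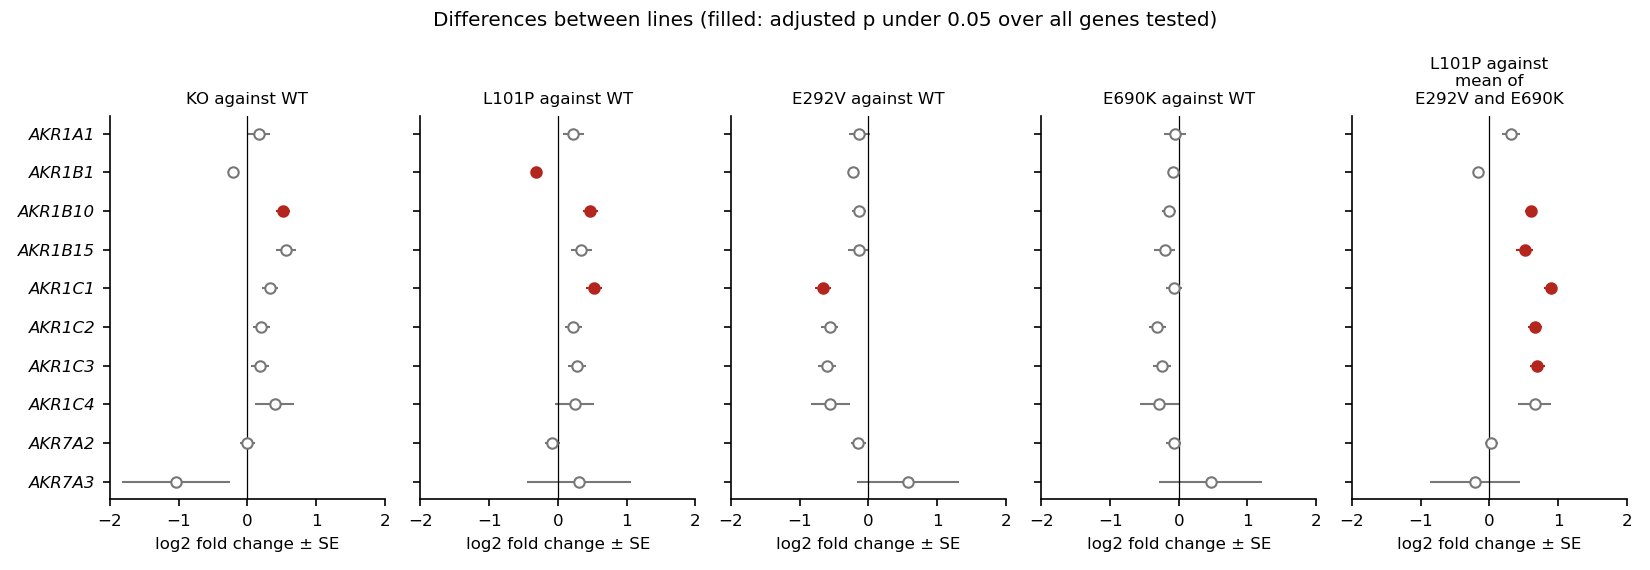
Log2 fold change with its standard error (x axis) of the 10 members (y axis) in the 4 comparisons with WT and in L101P against the mean of E292V and E690K. Filled points passed an adjusted p of 0.05 over all 17978 genes tested. In the last panel AKR1B10, AKR1B15, AKR1C1, AKR1C2 and AKR1C3 are filled and lie between 0.52 and 0.89, and AKR7A2 lies at 0.03.

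The order of the lines was read from the mean CPM of the untreated and transduced library of each line. Differences between neighbours in that order come from the same fit. For AKR1C1 the mean levels were 224 CPM in L101P, 198 in KO, 160.0 in WT, 147 in E690K and 101.5 in E292V. The only neighbours in this order with a called difference were E690K and E292V, E690K being higher by 0.59 (SE 0.12, adjusted p = 0.00628). With the 4 AKR1C genes counted as 1 row, E690K stood at 0.30 against E292V (SE 0.13, adjusted p = 0.169). AKR1B10 had mean levels of 2299.9 CPM in KO, 2207 in L101P, 1634 in WT, 1496 in E292V and 1431 in E690K, and the only neighbours called different were L101P and WT, as given above. AKR1C2 had means of 2851 CPM in L101P, 2837 in KO, 2529 in WT, 1959.8 in E690K and 1724.5 in E292V, with no call between neighbours.

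Between the edited lines, 5 members (AKR1B10, AKR1B15, AKR1C1, AKR1C2 and AKR1C3) were lower in E292V than in KO, beside 10.7% of all genes. The same 5 were lower in E292V than in L101P, beside 13.8%. These comparisons share the E292V libraries. Between KO and E292V AKR1C1 fell by 1.00 (SE 0.12, adjusted p = 0.000322), and between L101P and E292V it fell by 1.19 (SE 0.12, adjusted p = 8.2e-05). With the 4 AKR1C genes counted as 1 row, E292V stood at -0.78 against KO (adjusted p = 0.00195) and -0.83 against L101P (adjusted p = 0.00101). E690K had less AKR1B10 than KO (-0.66, adjusted p = 0.0101) and less AKR1B15 (-0.77, adjusted p = 0.0227), 2 members beside 1.64% of all genes. Under DESeq2 5 were called, and with the KO labels exchanged 1. E690K also had less AKR1B10 (-0.61, adjusted p = 0.0280) and AKR1C1 (-0.60, adjusted p = 0.0415) than L101P, 2 members beside 0.690%. This count was 0 with the KO labels exchanged or without the KO pair, 1 without the WT pair and 5 under DESeq2. The shares of all genes in these other settings are not given here, so such counts have no background beside them. The L101P libraries were unlike, with AKR1B10 at 1933 and 2481 CPM and AKR1C1 at 198 and 249.5 CPM (untreated, then transduced). AKR1C1 was the 1 member called between E690K and E292V, beside 10.4%. The 4 AKR1C genes counted as 1 row were not called in E690K against L101P (-0.54, adjusted p = 0.0855) or against E292V (0.30, adjusted p = 0.169). L101P and KO differed in 0 members, beside 0.139% of all genes, and in 0 members with an unadjusted p under 0.05. The difference depended on the L101P library used: without the untreated one the median member difference was 0.25, and without the transduced one it was -0.21.

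The vector was then examined, with the 5 lines as replicates and each line as its own pair. ABCA3, the gene it carries, was itself not called (-0.49, SE 0.55, adjusted p = 0.935) and was higher in the transduced library of 3 of 5 lines. No member was called, beside 0% of all genes, of which 1236 had an unadjusted p under 0.05. No member had an unadjusted p under 0.05, and DESeq2 and limma-voom called 0 members while they called 113 and 26 genes in all. AKR1C2 was estimated at -0.11 (SE 0.08, adjusted p = 0.883), AKR1C3 at -0.13 (SE 0.08, adjusted p = 0.841) and AKR1B10 at 0.09 (SE 0.07, adjusted p = 0.894). With the KO labels exchanged 0 members were called as well, and 0 had an unadjusted p under 0.05. Without the L101P pair 133 genes and 0 members were called. In that fit 3 members (AKR1C2, AKR1C3 and AKR1C4) had an unadjusted p under 0.05, and the share of all genes at that cut is not given here.

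Within lines the change with the vector had both signs. For AKR1B10 the log2 CPM of the transduced minus the untreated library was 0.36 in L101P and 0.17 in KO, 0.00 in E292V, and -0.09 in E690K and -0.12 in WT. For AKR1C2 it was 0.17 in L101P and 0.08 in KO, -0.14 in E690K and -0.29 in WT, and -0.46 in E292V. AKR1C3 gave 0.20, 0.03, -0.16, -0.37 and -0.46 in the same order. With the KO labels exchanged the KO values become -0.17 for AKR1B10, -0.08 for AKR1C2 and -0.03 for AKR1C3, and L101P is then the 1 line above 0 for each of the 3. L101P had the highest change for 8 of the 10 members, all but AKR1B1 and AKR7A3, and for 6 with the KO labels exchanged, where KO was higher for AKR1C4 (0.62 against 0.37) and AKR7A2 (0.15 against 0.13). These lines have no replicate within a treatment.

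**Figure D3:**
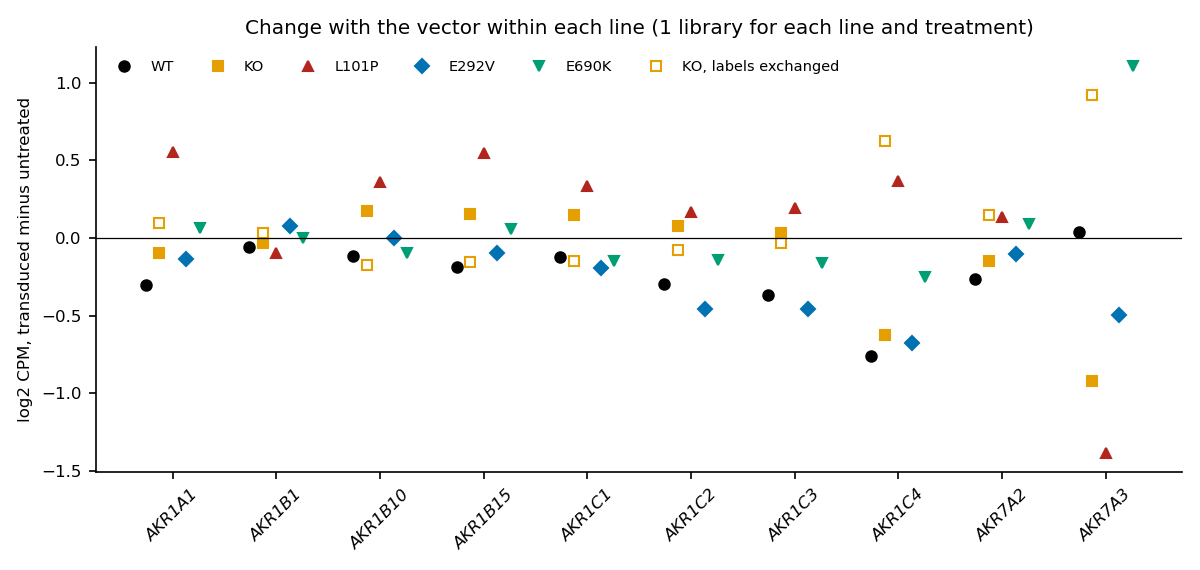
Change of each member with the vector within each line, as log2 CPM in the transduced minus the untreated library (y axis), with 1 symbol for each line and open squares for KO with its labels exchanged. The L101P triangles are the highest for 8 of the 10 members, or for 6 with the open squares in place of the filled ones, and either way some lines lie above 0 and others below for every member.

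NRF2 and its regulators were read beside the members. NFE2L2, which encodes NRF2, and KEAP1 were called in none of the 4 comparisons with WT, across variant types, for the vector or among the lines (adjusted p 0.222 and 0.580 among the lines). NFE2L2 ranged from 81.1 to 101.4 CPM and KEAP1 from 119 to 137 CPM over the 10 libraries. Of 9 regulators 1 differed among the lines, beside 13% of all genes, a share near the background. It was MAFF, which encodes a small MAF partner of NRF2 (adjusted p = 0.00949). SQSTM1, an adaptor that binds KEAP1, fell by 0.39 in E690K against WT (SE 0.10, adjusted p = 0.0456).

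The list of 30 other NRF2 targets, all tested, gave calls in both directions. Among the lines 13 of 30 differed, beside 13% of all genes. Across variant types 7 of 30 were called, beside 5.79%, all higher in L101P, with a median of 0.16 against 0.00 over all genes, and 27 of 30 estimates were above 0. ALDH3A1, an aldehyde dehydrogenase, was higher by 1.00 (SE 0.14, adjusted p = 0.0021), CYP4F11, a fatty acid hydroxylase, by 1.07 (SE 0.16, adjusted p = 0.00326), and GPX2, a glutathione peroxidase, by 0.98 (SE 0.18, adjusted p = 0.00745). NQO1, the quinone reductase often used as the NRF2 reporter gene, was higher by 0.33 (SE 0.08, adjusted p = 0.0289). GCLM, a subunit of the glutathione-making ligase, stood at 0.06 (SE 0.07, adjusted p = 0.683).

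Against WT, 7 of the 30 were called in L101P, beside 3.94% of all genes, 4 higher and 3 lower: ABCC3, an export pump, rose by 0.76 (SE 0.12, adjusted p = 0.00591), while HMOX1, heme oxygenase, fell by 0.98 (SE 0.20, adjusted p = 0.0179) and FTL, ferritin light chain, fell by 0.49 (SE 0.09, adjusted p = 0.0101). In KO 5 were called, beside 1.80%, 2 higher and 3 lower: TXNRD1, thioredoxin reductase, rose by 0.33 (SE 0.06, adjusted p = 0.0258), and HMOX1 fell by 0.93 (SE 0.20, adjusted p = 0.0354). In E690K 5 were called, beside 5.38%, 1 higher and 4 lower, with FTL at -0.72 (SE 0.09, adjusted p = 0.000606). In E292V 1 was called, beside 1.05%, PIR, at -0.50 (SE 0.09, adjusted p = 0.0201). The vector gave 0 calls in the list, beside 0% of all genes. At an unadjusted p under 0.05 stood 9 of the 30, beside 1236 of all 17978 genes. Of the 30 estimates 4 were above 0, and the median was -0.11 against 0.00 over all genes.

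**Figure D4:**
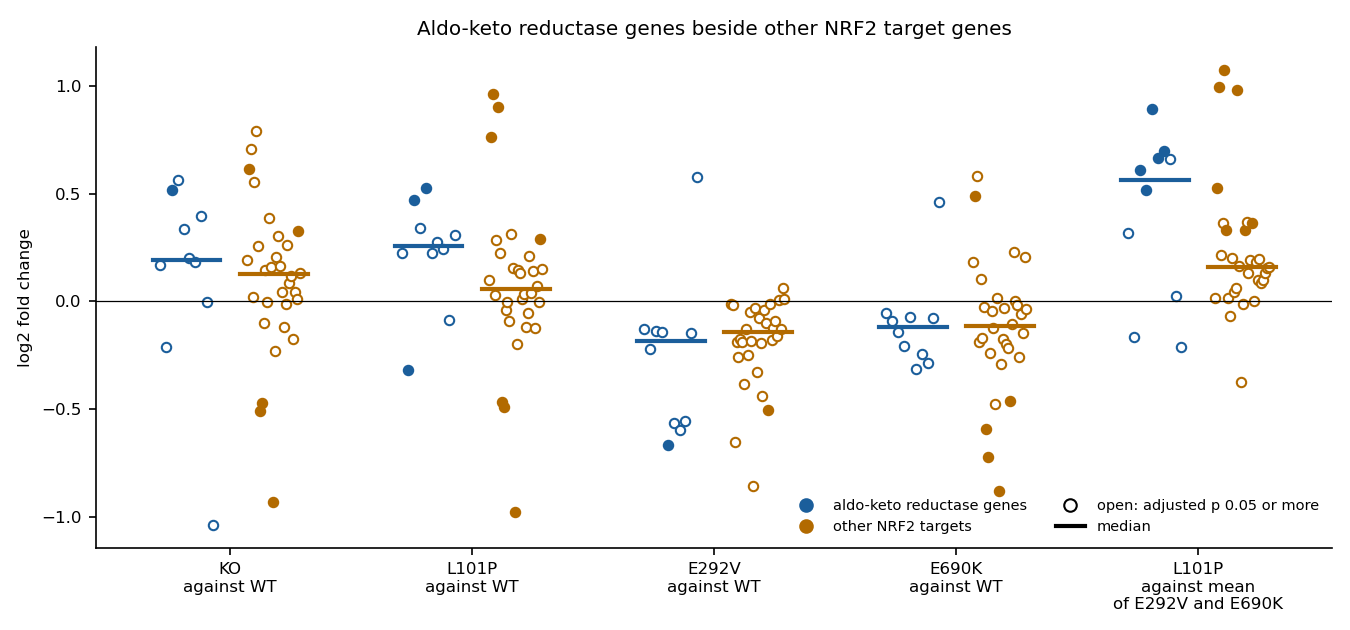
Log2 fold change (y axis) of the 10 members (blue) and of 30 other NRF2 targets (orange) in 5 comparisons (x axis), with filled points past an adjusted p of 0.05 and bars at the median. Across variant types the members have a median of 0.56 and the other targets 0.16, and HMOX1 and FTL are among the filled points below 0 in KO, L101P and E690K.

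Genes around the substrates of the family were counted as well. Of 8 prostaglandin genes tested, PTGES, a prostaglandin E synthase, was higher than WT in E690K by 0.69 (SE 0.16, adjusted p = 0.0267) and in L101P by 0.66 (SE 0.16, adjusted p = 0.0399), and PTGS1, a cyclooxygenase, in E690K by 1.05 (SE 0.26, adjusted p = 0.0360), which made 2 of 8 in E690K beside 5.38% of all genes and 1 of 8 in L101P beside 3.94%. Of 19 steroid and retinoid genes, STS, steroid sulfatase, was higher in L101P than in WT by 0.90 (SE 0.16, adjusted p = 0.00938), 1 of 19 beside 3.94%, and 2 of 19 were called across variant types, both higher, beside 5.79%. HSD17B10 fell by 0.50 in E292V against WT (SE 0.09, adjusted p = 0.0205), 1 of 19 beside 1.05%. Against WT, E690K had RDH10 at -0.79 (SE 0.20, adjusted p = 0.0415) and DHRS3 at -0.60 (SE 0.16, adjusted p = 0.0499), 2 of 19 beside 5.38%. SULT2B1 stood at -0.44 in KO against WT (SE 0.09, adjusted p = 0.0230), 1 of 19 beside 1.80%. Of 5 polyol pathway genes tested, KHK, ketohexokinase, was higher across variant types by 0.83 (SE 0.14, adjusted p = 0.00521), 1 of 5 beside 5.79%. Of 7 other family genes listed 4 were tested. AKR1D1, a bile acid enzyme of liver, was at most 0.107 CPM, and AKR7L and AKR1C8P had no row of counts under these names. KCNAB2, a potassium channel subunit of the same fold, fell by 0.78 in E690K against WT (SE 0.11, adjusted p = 0.00158), 1 of 4 beside 5.38%. With so few genes in each list these counts are a description.

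Likeness of pattern over the 10 libraries was measured by Pearson correlation of log2 CPM with 9450 genes of at least 10 CPM on average, outside the family, and is a description. Closest to AKR1B10 were PLSCR1 (0.976), B4GALT4 (0.969) and DOK4 (0.966). Closest to AKR1C2 were SPDEF (0.994), FOXA3 (0.993) and GPX2 (0.991). Closest to AKR7A2 were TFPT (0.948), SMIM29 (0.945) and C7orf50 (0.940). AKR1C2 and AKR1C3 had r = 0.992, AKR1B10 and AKR1C2 r = 0.829, and AKR1C2 and AKR7A2 r = 0.536. NQO1 had r = 0.922 with AKR1B10 and 0.914 with AKR1C2, and NFE2L2 had r = 0.03 and -0.14. The 10 points share lines in pairs.

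Genes next to the clusters were counted in the same comparisons. Against WT, 0 or 1 was called in each line of 22 tested genes within 1 Mb of the AKR1C cluster and of 15 near the AKR7A cluster, and 0 of 12 near the AKR1B cluster, beside 1.05% to 5.38% of all genes. Across variant types 1 of 22, 4 of 15 (KLHDC7A, PAX7 and NBL1 higher in L101P, IFFO2 lower) and 1 of 12 were called, beside 5.79%. AKR1E2, a family member next to the AKR1C cluster, had r = -0.06 with AKR1C2 and was at 10.3 to 14.8 CPM. Sequence upstream of the RefSeq start was available for 8 members, without AKR1B10 and AKR1B15, from the RefSeq table (GRCh38.p14). The windows of AKR1A1, AKR1C2, AKR1C3, AKR1C4 and AKR7A3 lie within the GENCODE genes. Those of AKR1B1 and AKR1C1 overlap their gene starts, and an AKR7A2 window just reaches its gene start. All of these windows can therefore hold transcribed sequence. The 250 bases upstream of AKR1C1 and AKR1C2 were 96.46% identical. The core of the antioxidant response element, TGACNNNGC on either strand, was found in this window in AKR7A2 only, with 3 matches, and occurs in 10.91% of 35116 windows of that table. TGANTCA (6.573% of windows) was found in none of the 8, and CACGTG (6.345%) in AKR1A1 only. The first 2 motifs can overlap each other. A window without these letters says nothing on binding elsewhere.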

How the data were processed

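The authors deposited gene counts as whole numbers, and each of the 10 libraries has a column, per the file headers. Per the labels' protocols, RNA came from lifted cells and libraries from a total-RNA kit. The submitters' processing notes name GRCh38, Subread, featureCounts, edgeR and limma, without versions or roles, and the aligner settings, annotation, strand and treatment of multi-mapping reads are not given in the sources used here. Row names were matched by symbol to GENCODE release 29 (98.7% matched). CPM is the count per 1000000 counts of the library. Among counts from 1 to 10, 81.4% were even, as when both mates of a pair are counted, so 95% Wilson intervals use the count divided by 2 and cover counting error only.

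Counts were tested with edgeR 4.0.16 in R 4.3.3: filterByExpr, TMM factors (0.972 to 1.03), 1 quasi-likelihood fit in which line and vector add up, over 10 libraries with 4 residual degrees of freedom, Benjamini-Hochberg adjustment over 17978 genes, and a threshold of 0.05. The SE is the log2 fold change divided by the square root of F. The fit was tried on simulated counts drawn independently for each library, with the same spread for all genes. They hold no departure from additivity of line and vector, so they cannot show whether the p-values here are well sized. The untreated and transduced library of a line are paired by the line itself. Alternatives were DESeq2 1.42.0, limma-voom (limma 3.58.1), other scalings and filters, halved counts, exchanged KO labels, near-identical genes summed, no replicate block for the vector, and each line's pair left out. Leaving out 1 L101P library, the coding-length scale, the sequence windows, the motifs and the neighbouring genes were chosen after seeing the data. Members, lists and design were chosen with earlier results of these data known. The named genes were all members; in each list NFE2L2, KEAP1, NQO1, GCLM, TXNRD1 and up to 4 called genes with the lowest adjusted p; and the 3 genes most like AKR1B10, AKR1C2 and AKR7A2. COL1A1, CD3E, AKR1D1, AKR1E2 and 4 neighbours of AKR7A2 were named after their values were seen. Sequence comes from GENCODE transcripts and the RefSeq upstream table.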

Additional observations from a re-analysis of the deposited data

How the results depend on the processing

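Of the 10 member calls in the 5 directed line comparisons, 0 reversed in any alternative and 3 held in all of them (AKR1B10, AKR1C1 and AKR1C2 across variant types); of the other 40, which were not called, 11 were called in some alternative. The number of members called in KO against WT was 1, and 2 under DESeq2, 0 with the KO labels exchanged, 3 without a filter on low counts, 3 without either L101P library, and 0 to 3 when a line's pair was left out. In L101P against WT it was 3, and 1 with the KO labels exchanged, 0 without the transduced and 7 without the untreated L101P library, and 0 to 3 with a pair left out. In E292V against WT it was 1, and 3 under DESeq2, limma-voom, no filter and without either L101P library, 2 with library totals as the only scaling, and 0 to 3 with a pair left out. In E690K against WT it was 0, and 1 without a filter and without either L101P library, and 0 to 1 with a pair left out. Across variant types it was 5, and 3 to 5 with a pair left out. Among the lines (6) and for the vector (0) no alternative moved the count by over 1.5 times, and with no replicate block the vector still called 0 members. The cause of these moves was not tested, and leaving out libraries leaves fewer of them. With 1 L101P library left out the other is fitted exactly, so this line then adds nothing to the error. AKR1C2 in E292V against WT was then at -0.57, beside -0.56 over all 10 libraries. For comparisons between lines, the share of all genes called in each alternative is not given here. These counts of members therefore have no background beside them. Each line has 1 library per treatment, so the error comes from departures from additivity, and the members with the fewest counts are AKR7A3 (8 to 41) and AKR1C4 (135 to 321).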
